A study of Mus musculus with 6 samples.

Results

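The genes described here encode the Sm core proteins of the spliceosome. They were chosen by symbol from the table of gene counts: *Snrpb*, its paralogue *Snrpn*, and *Snrpd1*, *Snrpd2*, *Snrpd3*, *Snrpe*, *Snrpf* and *Snrpg*. All 8 symbols were found, each as 1 row among 24421. The comparison asks how these genes were expressed when a share of the cells of the head carried 1 deleted *Snrpb* allele. RNA was sequenced from mouse heads at E9.0, before malformations are seen, in 3 WT and 3 mutant libraries, each a pool of 2 heads of the same genotype and of matched somite stage from different litters. Mutants, named *Snrpb* ncc+/- or het in the study, carried 1 *Snrpb* allele with loxP sites and the *Wnt1-Cre2* transgene, which acts in the neural tube and in neural crest cells. Other cells of the mutant head, such as mesoderm, surface ectoderm, blood and endothelium, keep both copies, so that the heads are a mixture of heterozygous and WT cells. WT heads were labelled SnrpB +/+, and whether they carried the transgene is not given in the sources used here. All embryos were untreated, and the labels name both CD1 and C57BL/6 as their background.

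The Sm proteins form a ring of 1 copy each of SmB/B′, SmD1, SmD2, SmD3, SmE, SmF and SmG around a short uridine-rich site of the U1, U2, U4 and U5 small nuclear RNAs, and the ring makes these RNAs into stable particles that splice pre-mRNA. The human gene *SNRPB*, counterpart of *Snrpb*, encodes SmB and SmB′. *Snrpn* encodes SmN, which is close to SmB in sequence, takes its place in the ring, and is found mainly in brain and heart. *Snrpn* is imprinted and transcribed from the paternal copy. SmB also acts on its own pre-mRNA, where an alternative exon with a stop codon can be included and sends the transcript to nonsense-mediated decay.

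*Snrpb* lies on the minus strand of chromosome 2, from 130171414 to 130179403 in mm10. Its principal transcript in Gencode M21 has 7 exons and 1161 bases, of which 693 are coding (231 codons). The loxP sites stand in introns 1 and 3, so that Cre takes out exon 2 (130177015 to 130177166, 152 bases) and exon 3 (130175330 to 130175441, 112 bases), both entirely coding. Between them lies the alternative exon of 124 bases (130176629 to 130176752), annotated in a transcript of the nonsense-mediated decay class, which is removed with them. The 264 bases of exons 2 and 3 make up 38.1% of the coding sequence and correspond to 88 codons with no remainder, so that joining exon 1 to exon 4 keeps the reading frame. The start codon, split from exon 2 by the first intron, is retained as the last bases of exon 1. The paper predicts that the protein from the shorter transcript of the deleted allele is not functional.

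The following 30-base stretches show the junctions that separate the intact transcript from that of the deleted allele, with the upstream exon in capitals and the downstream exon in lower case. The first and second are found only in transcripts that hold exon 2 or exon 3, and the last is what joining exon 1 to exon 4 would give. They are read 5′ to 3′ on the strand of the transcript, from the Gencode M21 sequence.
Exon 1 to exon 2: CGAGCCGCCACCATGacggtgggcaagagc
Exon 3 to exon 4: CCTCCTCCCAAAGATactggcattgcccga
Exon 1 to exon 4: CGAGCCGCCACCATGactggcattgcccga
The deposited counts are summed over each gene, and reads over these junctions were not analysed here. The remaining exons of the deleted allele still hold 897 bases, 77.3% of the transcript, from which reads can be counted to *Snrpb*. If the transcript of the deleted allele were as abundant as the intact one in every cell, the loss of exons 2 and 3 from 1 of 2 alleles would take 11.4% of the exonic bases of *Snrpb*, a log2 change of -0.17. If all reads of 1 allele were lost in every cell, the change would be 50%, or -1 on the log2 scale. These 2 values are arithmetic on the annotation and were used as reference lines, not as measurements. The paper reports that widespread deletion, by a different Cre line, gave a shorter *Snrpb* transcript. By quantitative RT-PCR it found significantly less *Snrpb* in those heterozygous embryos, which were at an earlier stage than these heads. Cre line, stage and assay differ from those here, so that measurement was not used as a reference line.

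**Figure D1:**
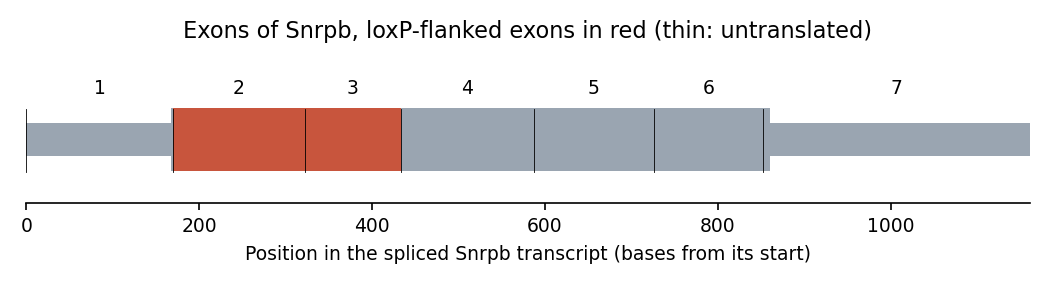
Map of the spliced *Snrpb* transcript in bases from its start, with exon numbers above, coding parts thick and untranslated parts thin. The loxP-flanked exons 2 and 3 (red) hold 264 of the 1161 bases, and the other exons (grey) hold 897.

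Total counts per library lay between 36378803 and 58946111 in WT and between 42398206 and 74909774 in mutants, and scaling factors lay between 0.991 and 1.02. Values in CPM are read counts per effective library size, which is the library's total over the tested genes multiplied by its scaling factor (TMM). Of all rows, 15584 passed the filter on low counts. These were compared by the two-sided quasi-likelihood test of edgeR, and the threshold was an adjusted P (Benjamini-Hochberg) of 0.05. Head markers were present in each library: the summed level of 11 neuroepithelial genes was 711 to 875 CPM in WT and 694 to 722 CPM in mutants, and that of 10 neural crest genes was 292 to 355 and 312 to 340 CPM. By log2 fold change, 10 of the 11 neuroepithelial genes were lower in mutants (median -0.12). Of the 10 neural crest genes, 7 were higher and 3 lower (median 0.03), and no gene of either list passed the threshold. WT replicate 1 stood apart, with the lowest sum of 8 cardiac genes (13.6 CPM, against up to 83.8 in WT and 37.4 to 138 in mutants) and the highest of 8 visceral endoderm genes (35.9 CPM, against 8.09 to 10.5 in mutants). The sum of 4 Y-linked genes was 62.8 to 120 CPM in WT and 111 to 228 CPM in mutants. Because this level went largely with genotype, a fit that adds it as a covariate can take up part of the genotype difference. Its SEs were also wider (for *Snrpb* 0.063, against 0.039 without the covariate). Values from that fit can therefore not separate the Y-linked level from genotype. The sums of 9 erythroid genes (902 to 1529 against 909 to 1243 CPM, with the adult globin gene *Hba-a1* at 0 in each library), 6 endothelial genes (210 to 258 against 204 to 244 CPM) and 9 posterior genes (4.03 to 5.30 against 4.83 to 6.35 CPM) overlapped between groups. Of the tested genes, 8 of 8 erythroid and 7 of 7 visceral endoderm genes were lower in mutants. The 7 tested cardiac genes were all higher, and none of these passed the threshold. WT replicate 1 also had the highest neuroepithelial sum (875 CPM) and the highest erythroid sum (1529 CPM) of all libraries. The counts of higher and lower marker genes include that library and were not repeated without it. The part of cell composition in the value of *Snrpb* was not tested. The part of the transgene cannot be told apart from that of the deletion, since its presence in WT is not given, and P-values measure the spread between these pools.

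*Snrpb*, the targeted gene, showed no difference between WT and mutant heads that exceeded the spread between libraries. WT libraries gave 429.9, 438.2 and 414.2 CPM (15651, 25733 and 15324 reads), and mutant libraries gave 436.5, 412.4 and 430.3 CPM (18432, 31351 and 28607 reads). The mutant values lie inside the range of WT except for replicate 2, which is the lowest of the 6 by less than 2 CPM. Scaled to the library total alone, replicate 2 was at 418.5 CPM and within the WT range, of which the lowest value was 410.3 CPM. The WT mean was 427.4 ± 12.2 CPM and the mutant mean 426.4 ± 12.5 CPM (SD, n = 3 libraries each). The log2 fold change was -0.0036 (SE 0.039, 95% interval -0.093 to 0.085; edgeR adjusted P = 0.990), a difference of -0.25% with an interval from -6.22% to 6.10%. Both reference lines, the loss of exons 2 and 3 alone (-0.17) and of all reads of 1 allele (-1) in every cell, lie outside this interval. Which share of *Snrpb* reads comes from cells with the deletion was not measured, and in whole heads fewer recombined cells and more *Snrpb* RNA per recombined cell cannot be told apart. The sign of this small difference depended on the scaling: it was 0.0074 on the log2 scale with library size alone, and 0.015 and 0.019 without WT replicate 2 or mutant replicate 2. Without WT replicate 1, which stood apart by its markers, it was -0.0034.

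**Figure D2:**
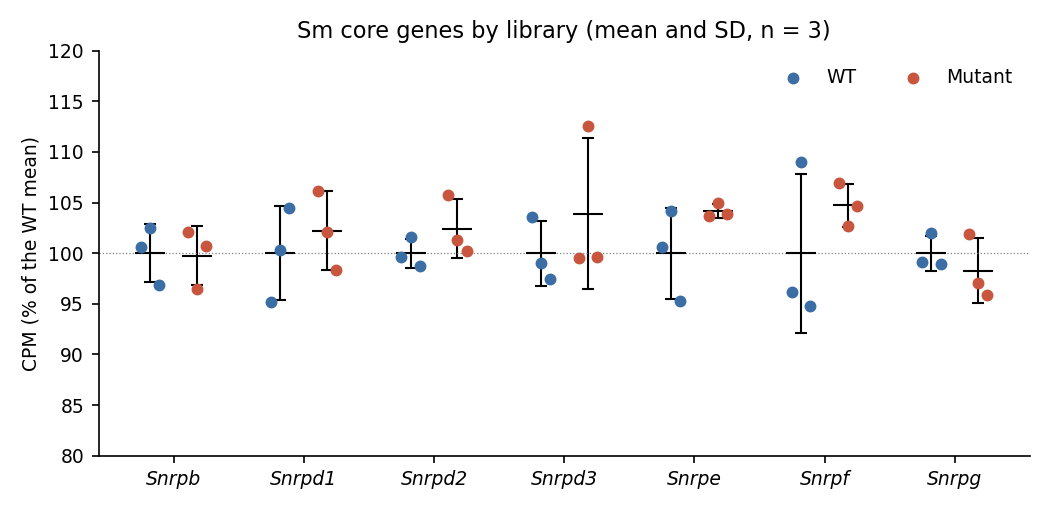
CPM of the 7 tested Sm core genes in each library, as a percentage of the WT mean of the gene (axis from 80 to 120%), for WT (blue) and mutant (red); horizontal bars are means and error bars SD (n = 3). The values of WT and mutant overlap for each of the 7 genes, and the highest point is *Snrpd3* in mutant replicate 2.

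*Snrpn*, the gene whose product can stand in for SmB, was almost without reads in either group. It was counted with 5, 5 and 4 reads in WT and 1, 5 and 9 reads in mutants, which corresponds to 0.137, 0.0851 and 0.108 CPM in WT and 0.0237, 0.0658 and 0.135 CPM in mutants. The mutant libraries reach from below the WT range to just under its top, and the lowest lies under the level of 3 counts, which was between 0.0395 and 0.0824 CPM depending on the library. For each 10000 reads of *Snrpb* there were 2.58 ± 0.63 reads of *Snrpn* in WT and 1.76 ± 1.31 in mutants (SD, n = 3 each), a difference of -0.82 (exact permutation test, two-sided, P = 0.4, with 0.1 the smallest P that 3 against 3 libraries allow). Summed over libraries, 14 reads in WT and 15 in mutants gave a rate ratio of 0.766 after allowing for depth, with an exact 95% interval of 0.345 to 1.71 that covers counting error only. The spread between the mutant libraries is not part of that interval. The filter left *Snrpn* out of the test over all genes. With no filter, edgeR gave a log2 fold change of -0.41 (SE 0.63, 95% interval -1.78 to 0.95, adjusted P = 0.888). Changes in either direction within these bounds remain compatible with the counts.

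What was counted to *Snrpn* also depends on the annotation at its locus on the minus strand of chromosome 7, from 59982495 to 60140219 in mm10. *Snrpn* shares its transcript with *Snurf*, which encodes a small protein of 71 codons from the upstream exons of the same RNA. In Gencode M21 all 216 exonic bases of *Snurf* lie in exons of *Snrpn*, which has 2159 exonic bases in all. RefSeq, in its annotation of GRCm38, draws *Snurf* from 59982495 to 60005199, a span that contains the whole principal transcript of *Snrpn* (1932 of 1932 bases). *Snurf* itself had 1 read in WT replicate 2 and 0 in the other libraries. How the counting treated reads that fall on more than 1 gene is not given in the sources used here. The level of *Snrpn* RNA in these heads can thus not be read from its row, and the part of the shared transcript in the low count was not tested.

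The 6 other tested genes of the same imprinted domain had between 209 (*Magel2*) and 10382 (*Ube3a*) reads in a library. *Ndn*, a paternally expressed gene that encodes necdin, was found at 117.3 ± 4.77 CPM in mutants, with a log2 fold change of -0.02 (SE 0.05). *Ube3a*, a ubiquitin ligase gene expressed from the maternal copy in neurons, had a log2 fold change of -0.11 (SE 0.06, edgeR adjusted P = 0.650). For *Snhg14*, the long RNA that runs through the domain and against *Ube3a*, it was 0.15 (SE 0.09, adjusted P = 0.696). None of the 6 tested genes of the domain passed the threshold or had an unadjusted P under 0.05. *Magel2* (0.27, SE 0.14, adjusted P = 0.650), *Mkrn3* (0.07) and *Peg12* (0.03) completed the list, and its median was 0.05.

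None of the other ring genes passed the threshold either. Over the 7 Sm core genes tested (*Snrpn* was the 8th), 0 had an adjusted P under 0.05 with edgeR or DESeq2, 0 had an unadjusted P under 0.05 with either tool, and in 0 did the WT and mutant ranges stand apart. Over all tested genes, edgeR called 0.00642% (1 gene), 8.43% had an unadjusted P under 0.05 (4.34% higher and 4.09% lower in mutants), and in 15.2% the ranges did not overlap (8.32% higher and 6.92% lower). DESeq2 called 0.651% of the genes to which it gave an adjusted P. The log2 fold change was above 0 in 5 of the 7, against 50.2% of all genes, and their median was 0.03, against 0.0004 over all genes.

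SmD3 binds SmB directly, and both proteins form 1 unit before the ring is closed. *Snrpd3*, on chromosome 10 from 75517551 to 75537381, was found at 100.4, 96.0 and 94.5 CPM in WT and at 96.5, 109.1 and 96.6 CPM in mutants. Replicate 2 of the mutants was the highest of the 6, and the other 2 mutant libraries lay within the WT range. On the log2 scale the difference was 0.056 (SE 0.056, edgeR adjusted P = 0.823), or 3.97% with an interval of -4.83% to 13.6%. It rested on mutant replicate 2, without which it was -0.0068, and it was -0.036 with the Y-linked level as a covariate.

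SmD1 and SmD2 form the second unit, on which assembly of the ring starts. *Snrpd1*, on chromosome 18, was found at 174.1, 183.4 and 191.0 CPM in WT and at 194.1, 186.7 and 179.8 CPM in mutants, and the values of the groups interleave. Its log2 fold change was 0.031 (SE 0.048, edgeR adjusted P = 0.887), or 2.18% with an interval of -5.16% to 10.1%, and it was -0.0068 without WT replicate 1, 0.0031 without mutant replicate 1 and 0.063 without WT replicate 3. *Snrpd2*, on chromosome 7 from 19149722 to 19153542, was found at 174.9, 178.2 and 173.3 CPM in WT and at 185.5, 177.7 and 175.8 CPM in mutants. Only replicate 1 of the mutants lay above the WT range. Mutants were at 0.034 on the log2 scale relative to WT (SE 0.038, adjusted P = 0.849), or 2.38% with an interval of -3.58% to 8.71%. It was 0.010 without mutant replicate 1 and 0.0079 with the Y-linked covariate.

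SmE, SmF and SmG form the third unit and join SmD1 and SmD2 before SmB and SmD3 are added. *Snrpe*, on chromosome 1 from 133603871 to 133610291, was found at 181.5, 187.9 and 171.8 CPM in WT and at 187.0, 189.4 and 187.4 CPM in mutants. The mutant libraries lay close together near the top of the WT range, and WT replicate 2 was higher than 2 of them. For *Snrpe* the log2 fold change was 0.059 (SE 0.042, edgeR adjusted P = 0.735), or 4.14% with an interval of -2.53% to 11.3%. This was the smallest adjusted P among the ring genes. The log2 fold change of *Snrpe* was 0.0011 with the Y-linked level as a covariate and 0.024 without WT replicate 3.

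*Snrpf*, on chromosome 10 from 93583029 to 93589706, had the fewest reads of the tested ring genes, at 24.8, 28.1 and 24.5 CPM in WT and 27.6, 26.5 and 27.0 CPM in mutants. All mutant values lay between those of WT. Its log2 fold change was 0.064 (SE 0.065, adjusted P = 0.830), or 4.50% with an interval of -5.70% to 15.8%. It was 0.13 without WT replicate 2, 0.031 and 0.026 without WT replicates 1 and 3, and 0.0051 with the Y-linked covariate. *Snrpg*, on chromosome 6 from 86371304 to 86379328, was found at 149.7, 154.1 and 149.4 CPM in WT and at 154.0, 146.6 and 144.8 CPM in mutants. Mutant replicates 2 and 3 lay below the WT range and replicate 1 within it, but scaled to the library total alone replicate 2 was at 148.8 CPM and within that range. This gave a log2 fold change of -0.026 (SE 0.040, adjusted P = 0.889), or -1.77% with an interval of -7.73% to 4.58%. It was -0.054 with the Y-linked covariate, and ranged from -0.053 without mutant replicate 1 to -0.011 without WT replicate 2.

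**Figure D3:**
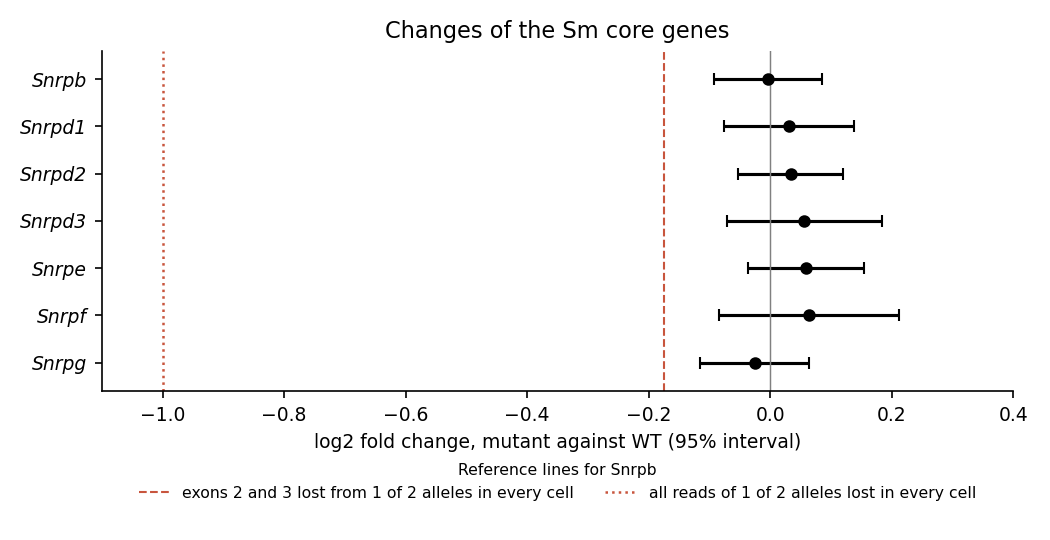
The log2 fold change of mutant against WT (x axis) with its 95% interval from edgeR for the 7 tested Sm core genes. Each interval includes 0, and that of *Snrpb*, from -0.093 to 0.085, includes neither reference line, drawn at -0.17 (exons 2 and 3 lost from 1 of 2 alleles in every cell) and at -1 (all reads of 1 allele lost).

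The intervals give the sizes of change in the level of whole heads that remain compatible with these data. They do not bound a change confined to the recombined cells, since the share of those cells was not measured. For the 6 partners of *Snrpb*, the lowest bound of an interval was -7.73% (*Snrpg*) and the highest 15.8% (*Snrpf*). From the lowest to the highest of the 6 libraries, *Snrpb* varied by 0.088 on the log2 CPM scale, and 96.2% of all tested genes varied more. The range was 0.090 for *Snrpg* and 0.098 for *Snrpd2*, exceeded by 95.8% and 94.3% of genes. *Snrpf* (0.20) and *Snrpd3* (0.21) varied most, and 67.4% and 65.9% of genes varied more than they did. These percentages are over all tested genes, and genes with few reads vary more by counting alone. Whether the ring genes varied less than genes of like level was not tested.

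The ring proteins occur in equal number in the ring, but their RNAs were not counted at equal levels. Per kilobase of the principal transcript, the WT means were 368 ± 10.5 CPM per kilobase for *Snrpb*, 359 ± 16.1 for *Snrpe*, 213 ± 9.88 for *Snrpd1*, 143 ± 2.49 for *Snrpg*, 124 ± 1.78 for *Snrpd2*, 31.9 ± 1.02 for *Snrpd3* and 30.0 ± 2.35 for *Snrpf* (SD, n = 3 each). Over all 6 libraries *Snrpb* (355 to 377) and *Snrpe* (342 to 376) overlapped, as did *Snrpd3* (31.1 to 35.95) and *Snrpf* (28.4 to 32.7), and the other neighbours in this order did not. On this scale, *Snrpb* and its direct partner *Snrpd3* differed by 11.2, 11.9 and 11.5 times in WT and by 11.8, 9.88 and 11.6 times in mutants. The order depended on the length used: per kilobase of all annotated exons, the WT means were 216 CPM per kilobase for *Snrpb*, 131 for *Snrpe*, 96.2 for *Snrpg*, 89.1 for *Snrpd1*, 67.0 for *Snrpd2*, 30.0 for *Snrpf* and 28.2 for *Snrpd3*. *Snrpb* and *Snrpe* stayed first and second, while *Snrpg* and *Snrpd1*, and *Snrpf* and *Snrpd3*, changed places.

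**Figure D4:**
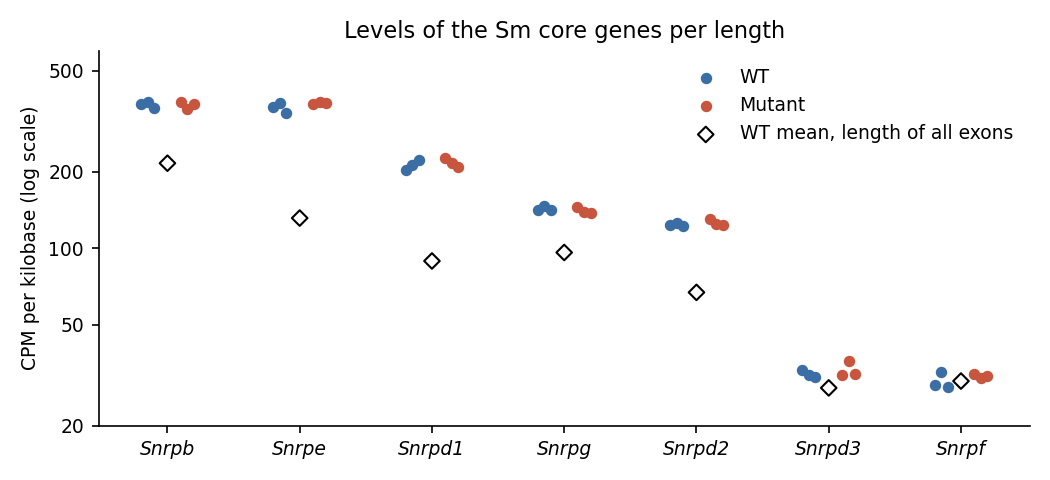
Levels of the 7 tested Sm core genes in CPM per kilobase of the principal transcript (log axis) in WT (blue) and mutant (red) libraries, with the WT mean per kilobase of all annotated exons as open diamonds. *Snrpb* and *Snrpe* lie highest, between 342 and 377, and *Snrpd3* and *Snrpf* lowest, between 28.4 and 35.95, in each library.

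Near-identical copies and overlapping genes limit these levels for some members. Of the 100-base stretches (the length of 1 read) of each principal transcript, none of the 1062 of *Snrpb* was found in another transcript of Gencode M21, on either strand. The share was 18.7% for *Snrpn*, through *Snurf* and a further transcript of the locus. It was 1.45% for *Snrpd1*, 2.15% for *Snrpd3*, 7.12% for *Snrpd2*, 13.8% for *Snrpg* and 19.3% for *Snrpe*, which match processed pseudogenes, or in *Snrpd3* the gene *Gucd1* on the other strand. The share was 78.3% for *Snrpf*, mostly through *Ccdc38*, a gene on the other strand that holds 53.1% of its stretches and was counted with 60 to 187 reads. The rest was shared with the pseudogene *Gm13092* (16.1%) and the long non-coding RNA gene *4933408J17Rik* (9.06%). The pseudogenes have no row in the table, and since strand setting and treatment of multiply mapped reads are not given, reads of *Snrpf* and *Ccdc38* cannot be told apart with certainty. If shared reads were dropped in counting, the level of *Snrpf* given above would be too low, and so would its place in the order. This was not tested.

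*Snrpb* also held its place in the ring as a share of the summed per-kilobase level of the 7 genes. The share was 29.4%, 29.0% and 28.7% in WT and 28.6%, 27.7% and 29.0% in mutants, with means of 29.0 ± 0.35% and 28.5 ± 0.65% that overlap. The share of *Snrpg* was 11.3%, 11.2% and 11.4% in WT and 11.1%, 10.9% and 10.7% in mutants, so that its groups did not overlap. It was the only 1 of the 7 shares to do so, and non-overlapping groups were found in 15.2% of all tested genes on the CPM scale. Summed without regard to length, the 7 genes took 1235, 1266 and 1219 CPM in WT and 1281, 1248 and 1242 CPM in mutants.

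Members of the ring did not vary together in any uniform way. Of 21 pairs of tested members, 14 had a positive correlation of log2 CPM over the 6 libraries, with a median of 0.35. They ranged from -0.49 for *Snrpb* with *Snrpd3* to 0.83 for *Snrpe* with *Snrpf*. Among 15583 other genes, the pattern of *Snrpb* was most like that of *Garem* (Pearson's r = 0.99, Spearman's rho = 0.89), *H2afz* (0.99 and 1) and *Slc38a10* (0.98 and 0.83). These are descriptions over 6 libraries that share depth and composition, in which *Snrpb* spans only 0.088 on the log2 scale.

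The proteins that build the ring are carried by the SMN complex and by the PRMT5 methylosome, which methylates SmB, SmD1 and SmD3. Of 18 genes for these and for snRNA export and cap modification, 0 passed the threshold with edgeR or DESeq2 and 0 had an unadjusted P under 0.05 with edgeR, with 8 higher, 10 lower and a median log2 fold change of -0.0070. The values ran from -0.092 for *Gemin5*, which recognises the snRNA, to 0.061 for *Phax*, the snRNA export adaptor. The smallest P belonged to *Gemin4*, a part of the SMN complex, at -0.07 (SE 0.04, edgeR adjusted P = 0.683). Some LSm proteins form related rings on U6 snRNA and in mRNA decay. The LSm list holds 14 genes, not all of them parts of those rings. Of these 14 genes, 0 passed the threshold with edgeR or DESeq2 and 0 had an unadjusted P under 0.05 with edgeR. By log2 fold change, 6 were higher and 8 lower, with a median of -0.013. The smallest P was that of *Lsm2*, at -0.08 (SE 0.06, adjusted P = 0.740), and the highest value was 0.079 for *Lsm7*.

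Further snRNP proteins join the ring on single snRNPs. The list examined here was chosen by name and holds 11 genes whose symbols begin with Snrp or Snrnp, so that snRNP proteins with other names are left out. Of these 11 genes, 0 passed the threshold with edgeR, 3 had an unadjusted P under 0.05, all of them higher in mutants (4.34% of all genes), and in 5 the groups stood apart with the mutants higher (8.32% of all genes). The median log2 fold change was 0.05. *Snrpa1* encodes the A′ protein of the U2 snRNP. It was found at 195.0, 196.8 and 203.4 CPM in WT and at 242.5, 224.9 and 235.1 CPM in mutants, with each mutant library above each WT library. *Snrpa1* had a log2 fold change of 0.24 (SE 0.04), with an adjusted P of 0.235 with edgeR and of 0.0038 with DESeq2. *Snrpb2*, which despite its name encodes the B′′ protein that binds U2 snRNA together with A′ and is no Sm protein, was found at 91.5, 99.5 and 105.8 CPM in WT and at 110.7, 117.9 and 116.6 CPM in mutants. Its values too stood apart, with a log2 fold change of 0.22 (SE 0.06, edgeR adjusted P = 0.424). *Snrnp48*, of the minor U11/U12 snRNP, had a log2 fold change of 0.20 (SE 0.08, adjusted P = 0.547) and overlapped between groups. The summed level of 10 early neuron genes was 130 to 167 CPM in WT, highest in replicate 1, and 120 to 134 CPM in mutants. Of these genes, 9 of 10 were lower in mutants and 1 (*Elavl3*) had an unadjusted P under 0.05 with edgeR. The part of this in the values of *Snrpa1*, *Snrpb2* and *Snrnp48* was not tested. With the Y-linked level as a covariate, the log2 fold change was 0.29 (SE 0.06) for *Snrpa1*, 0.27 (SE 0.08) for *Snrpb2* and 0.03 (SE 0.09) for *Snrnp48*. In that fit *Snrpa1* and *Snrpb2* had an unadjusted P under 0.05, and 0 of the 11 genes passed the threshold.

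**Figure D5:**
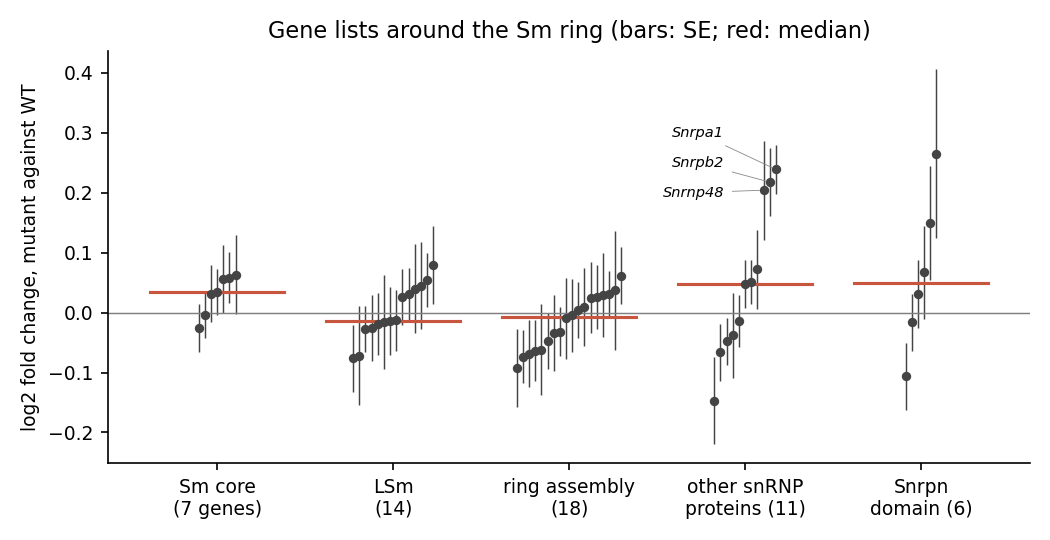
The log2 fold change of mutant against WT (y axis) for the tested genes of 5 lists, each point a gene with its SE from edgeR and each red line the median of the list. The Sm core genes lie between -0.026 and 0.064, and the 3 named genes of the list of other snRNP proteins are those with an unadjusted P under 0.05.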

How the data were processed

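Total RNA from pooled heads was depleted of ribosomal RNA, made into stranded libraries and sequenced with paired reads of 100 bases. According to the paper, the authors used CutAdapt for trimming, STAR for mapping to mm10 and HTSeq with Gencode M2 for the gene counts, whereas the submitters' processing notes name Trim Galore, STAR, MultiQC and featureCounts. Strand setting and treatment of reads on more than 1 gene or position are not given in the sources used here. The deposited values are raw counts per gene symbol, whole and without normalization, for 6 libraries. No column was without a sample. Because both counters and the strand setting are uncertain, genes that overlap others or have near-identical copies are marked in the text.

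Counts were tested with edgeR 4.0.16 (limma 3.58.1, R 4.3.3) with TMM scaling, the filterByExpr filter for genotype groups, a robust quasi-likelihood fit and no covariate, with Benjamini-Hochberg adjustment over all 15584 genes kept of 24421. Intervals are the coefficient ± the t quantile times its SE. CPM are per TMM-scaled library size, and log2 CPM used a prior count of 2. Depth ranged from 36378803 to 74909774 counts. Counting error weighs most on *Snrpn*, and also on other genes with few reads, such as *Magel2* (from 209 reads) and *Snrpf* (from 904 reads). No pair of libraries was a duplicate: the chi-square per degree of freedom was 10.2 or more.

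Alternatives were DESeq2 1.42.0, RLE scaling, library size alone, no filter, at least 10 counts in each library, a block for the replicate number, the Y-linked level as a covariate, and each library left out. The length of all exons was added after the data were seen. Transcripts, exons and lengths come from Gencode M21, a later annotation of mm10, and the RefSeq span of *Snurf* from its GRCm38 annotation. Members and lists were chosen with earlier results of these data known. Named genes are all members; of each other list those with an unadjusted P under 0.05 (at most 6) or else the smallest P; the tested genes of the *Snrpn* domain; and the 3 genes most like *Snrpb*. None is given for *Snrpn*, which was not tested. Genes at the ends of a list's range (*Gemin5*, *Phax*, *Lsm7*) were named after their values were seen. Scripts were tested on simulated data. Figures were drawn with matplotlib 3.10.9 in Python 3.11.15.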

Additional observations from a re-analysis of the deposited data

How the results depend on the processing

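The 13 alternatives gave 91 log2 fold changes for the 7 tested Sm core genes: 0 passed the threshold, 85 kept their sign and 6 changed it, and they ranged from -0.054 to 0.13. The log2 fold change of *Snrpb* became 0.0074 with library size alone, and ranged from -0.026 to 0.019 with 1 library left out. That of *Snrpd3* became -0.036 with the Y-linked level as a covariate and ranged from -0.0068 to 0.086 with 1 library left out, and that of *Snrpd1* ranged from -0.0068 to 0.063. The median over the Sm core genes stayed above 0, from 0.0011 with the Y-linked covariate to 0.053 without mutant replicate 3. The difference in *Snrpn* reads per 10000 *Snrpb* reads stayed below 0, from -1.51 without mutant replicate 3 to -0.21 without mutant replicate 1.

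Past the threshold over all genes were 1 gene in the reported fit, 84 with DESeq2, 11 with no filter, 0 with the Y-linked covariate, and 0 to 6 with 1 library left out (6 without WT replicate 1 and 5 without mutant replicate 1). Among the other snRNP protein genes, DESeq2 called 1, *Snrpa1*. The LSm, assembly and imprinted domain lists had 0 calls in each alternative. With the replicate number as a block, 1 gene was called, *Snrpb* was at -0.0036 and no call on a list changed. Libraries with the same number had correlations of deviations of 0.17, 0.032 and 0.36, and WT replicate 2 and mutant replicate 2 did not correlate best with their own number, so the numbers were not taken to pair the samples.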
